A study of Hypsibius dujardini with 126 samples.

Results

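The transcripts described here were abundant in the first hours of development of the tardigrade Hypsibius dujardini, were lost over the following days and were almost uncounted at the end of the course. They were chosen by their level, in counts per 1000000 transcript counts (CPM), averaged over the embryos of windows of 10 h. A member had a mean of at least 50 CPM at 0-9 h, a mean under 1 CPM at 90-99 h, and at 10-19, 20-29 or 30-39 h a mean of at least 1/3 of its 0-9 h mean. Of 12746 transcript models, 3810 reached the first threshold, 238 of those met the second, and 236 of those met the third and are the members. The 2 left out by the third criterion had best shares of 0.309 and 0.314 of their 0-9 h mean, and the 3 members nearest to that threshold had 0.336, 0.340 and 0.342. The members nearest to the other thresholds had 50.05 and 50.06 CPM at 0-9 h and 0.959 and 0.980 CPM at 90-99 h, and the transcripts just outside had 49.6 and 49.9 CPM at 0-9 h and 1.03 and 1.06 CPM at 90-99 h. Since these 5 windows chose the members, their values there are a description, given without a test. The counts carry transcript IDs without gene names, so no function is given for any member.

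An egg is loaded by its mother with RNA, and the first divisions of an animal embryo run on that supply before its own genome is transcribed widely. Clearing the maternal RNA is a regulated process in which RNA-binding proteins and small RNAs recruit enzymes that shorten the poly(A) tail, after which the body of the RNA is degraded. In well-studied animals some maternal transcripts go within the first divisions, and others persist until late cleavage or the formation of the germ layers. A transcript counted in an early embryo can also come from early transcription by the embryo, and counts alone do not separate these sources. CEL-Seq starts from the poly(A) tail and reads the 3' end, so a transcript that has lost its tail is not counted even where its body is still there.

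RNA was counted in 126 single embryos of cultured Hypsibius dujardini, a freshwater tardigrade, each isolated by hand, kept at 20 °C and frozen at its age, with no treatment or altered genotype named in the labels. In the labels time is given from fertilization but in the growth protocol from the 2-cell stage, so time zero is uncertain. Ages are label times turned into hours, with the 1-cell and 2-cell embryos in the 0-9 h window. Embryo numbers run through the course in 3 runs, embryos 79-126 from the 1-cell stage to 46 h, embryos 26-78 from 47 to 99 h and embryos 1-25 from the 2-cell stage to 18 h and again from 80 to 98 h. The labels name no batches, and nothing in them ties embryos to a mother, so p-values describe differences among embryos that may be siblings. Total transcript counts ran from 2347 to 4972036 per embryo, and the 101 embryos at or above 10% of the median were kept. In the kept embryos from 0 to 46 h, embryos 79-126 had a ratio of transcript to spike-in counts of 89.5 to 279 and embryos 1-25 one of 1.05 to 12.4, while embryos 26-78 had 2.04 to 6.68 at 47-59 h. In whole embryos, fewer cells that hold a transcript and less of it per cell cannot be told apart.

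The embryos labelled 28 to 34 h stood apart from their neighbours in the same run and went against their label time. The summed level of the 236 members in embryos 79-126 was 11891 to 18628 CPM in the 5 kept embryos from 21 to 27 h. At 28, 29, 30, 31, 32, 33 and 34 h it was 34178, 34351, 34265, 35331, 30335, 25606 and 30937 CPM. The summed level in the kept embryos of 0-9 h in this run was 30172 to 35818 CPM, and of the embryos from 28 to 34 h only that of 33 h lay outside this range, below it. In the 4 kept embryos from 35 to 39 h it was 14394, 16736, 8935 and 6383 CPM. Every embryo from 28 to 34 h was therefore above every kept embryo from 21 to 27 h and from 35 to 39 h. The bounds of 28 and 34 h were set after these levels were seen, so this separation is a description. The profile of the transcripts that are not members moved in the same hours. For each embryo, the levels of the 12509 other transcripts with a count in at least 1 kept embryo were used. They were compared by Spearman's rho with the mean profile of embryos 1-25 at 0-9 h and at 10-18 h, as a description over transcripts that share a library. The difference of the 2 rhos was 0.008 to 0.050 in embryos 79-126 at 0-9 h and negative in each of their kept embryos from 10 to 27 h and from 35 to 46 h. It was positive at 28, 29, 30, 31, 32 and 34 h, at 0.014 to 0.050, and -0.01 at 33 h. The cause of this was not tested. The values below are given with and without these 7 embryos where they rest on them, and without them the same thresholds leave 190 of the 236 members and add none.

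**Figure D1:**
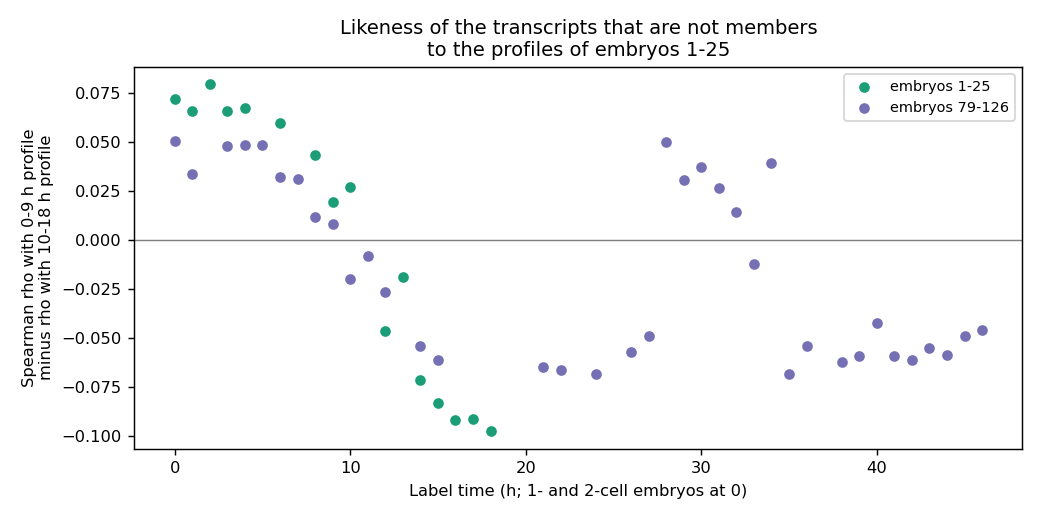
The difference between 2 Spearman correlations, with the 0-9 h and with the 10-18 h mean profile of embryos 1-25, plotted against label time in hours for each kept embryo of embryos 1-25 and 79-126 up to 46 h. Each point is 1 embryo, and members are left out of the profiles. The embryos 1-25 shown are themselves part of these profiles, so their values are in part built in. The embryos of 28 to 34 h lie between -0.01 and 0.050, above the embryos on either side of them.

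In the first 10 h the members made up about 3% of all transcript counts. Their summed level was 23572 to 35818 CPM in the 17 kept embryos, with a median of 31706 CPM. Single members had means from 50.05 to 705 CPM with a median of 94.1 CPM, and 126 lay from 50 to 100 CPM, 68 from 100 to 200, 33 from 200 to 400 and 9 at 400 CPM or more. In 215 members each one of the 17 embryos had a count, so most were present in each early embryo at this depth. The spread between embryos was wide, with a median coefficient of variation of 51.3% and a range from 21.9% to 177%.

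**Figure D2:**
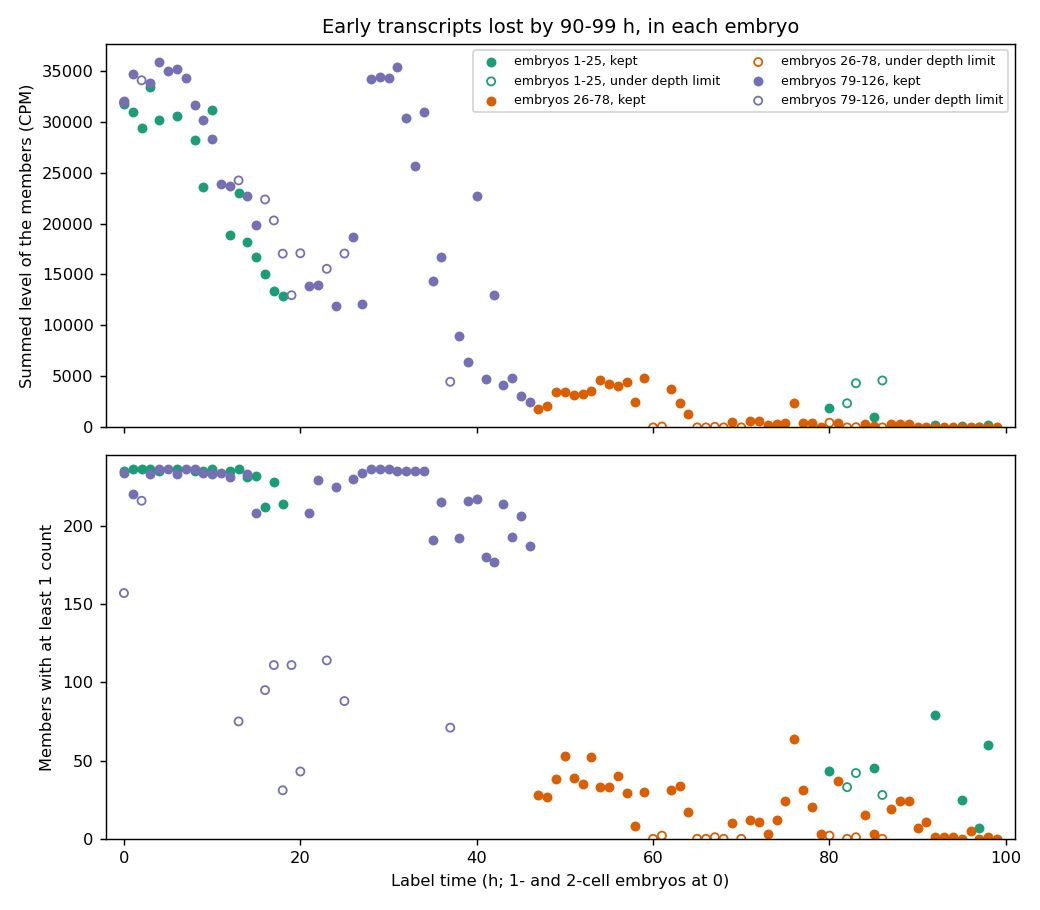
The summed level of the 236 members in CPM (upper panel) and the number of members with at least 1 count (lower panel) in each embryo against label time in hours. Filled points are the 101 kept embryos, open points the 25 under the depth limit, and colours are the 3 runs of embryo numbers. The level falls from 10 to 27 h, is back at 34178 to 35331 CPM at 28 to 31 h, falls again, and few members are counted in the embryos from 47 h on.

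From 10 h on the summed level fell in both runs that cover these hours. In embryos 1-25 the kept embryos of 10, 12, 13 and 14 h held 31101, 18858, 23039 and 18179.5 CPM, and those of 15, 16, 17 and 18 h held 16745, 15093, 13395 and 12938 CPM. In embryos 79-126 the kept embryos of 10, 11, 12, 14 and 15 h held 28270.4, 23871, 23674, 22718 and 19812 CPM. Both runs were thus lower at 14 and 15 h than at 10 h, with embryos 79-126 the higher at each of these 2 hours. The decline differed from member to member. At 10-19 h, 188 of the 236 were at 1/3 or more of their 0-9 h mean, at 20-29 h 209 and at 30-39 h 215, and 159 were so in all 3 windows, or 89 without the embryos of 28 to 34 h. The counts at 20-29 h and 30-39 h rest in part on the embryos of 28 to 34 h. At 21-27 h, 108 members were at 1/3 or more with a median ratio to 0-9 h of 0.296, at 28-34 h 233 members with a median ratio of 0.953, and at 35-39 h 100 members with a median ratio of 0.251.

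The rise at 28-34 h was shared by most members. Their mean was higher at 28-34 h than at 21-27 h in 208 members, 88.1% of them, by a median ratio of 3.10, and 153 members were more than 2 times as high. Of the 3572 other transcripts with at least 50 CPM at 0-9 h, those at 1 CPM or more at 90-99 h, 76.7% were higher, by a median ratio of 1.55. Both counts use windows of the rule and are a description. A minority of members were at their highest after the first 10 h. In 63 members at least 1 of the means at 10-19, 20-29 and 30-39 h was above the 0-9 h mean, in 8 of these at least 2 times as high, and the highest ratio was 9.94. Without the embryos of 28 to 34 h these were 51 members, 9 members and a ratio of 11.6. By the shorter spans, 94 members were above their 0-9 h mean at 28-34 h, against 29 at 21-27 h and 22 at 35-39 h.

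The hours from 40 to 89 took no part in choosing the members, but the rule fixed a high level before them and a low level after them. Of the 14 kept embryos in the last window of the rule, 10 are embryos 26-78. Transcripts with few counts in that run were thus favoured as members, and a fall within these hours is in part built in. At 40 to 46 h, the last hours of embryos 79-126, the summed level was 22726, 4765, 12974, 4153, 4841, 3128 and 2484 CPM in hourly order. The embryos of 40 and 42 h were thus above all 5 others. By the means over these embryos 61 members were at 1/3 or more of their 0-9 h mean, and the median member was at 15.4% of it. Both values rest in part on the embryos of 40 and 42 h, where the median member was at 0.314 and 0.204 of its 0-9 h mean. In the 5 others it was at 0.036 to 0.079. In each embryo 177 to 217 members had a count. At 47 h the run changes to embryos 26-78, with 28, 27 and 38 members counted at 47, 48 and 49 h and 8 to 53 in the embryos of 50-59 h. Total counts were 112145 to 1204582 at 40-46 h and 154116 to 1756168 at 50-59 h. Reads are not independent molecules, so like totals need not mean that like numbers of RNA molecules were sampled, and this was not tested. At 50-59 h the median member was at 1.8% of its 0-9 h mean, 90 members had no count in any of the 10 embryos, and 5 were at 50 CPM or more. Of the transcripts with more than 3 counts at 40-46 h or 50-59 h, 78 of 224 members and 1204 of all 11322 had no count at 50-59 h. The ratio of transcript to spike-in counts dropped in the same hour, from 138 to 180 at 40-46 h to 4.57 to 6.68 at 47-49 h, and age and run cannot be told apart.

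**Figure D3:**
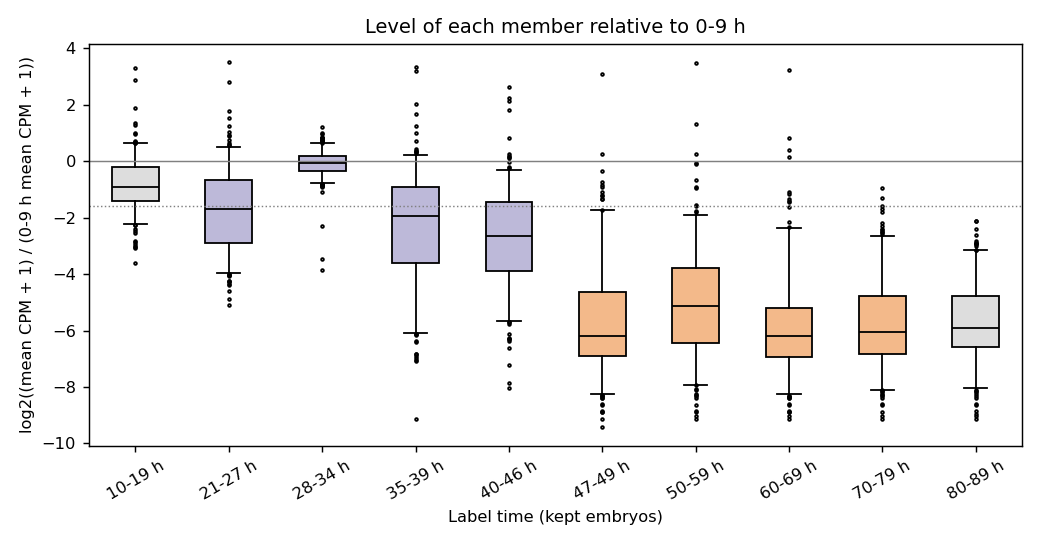
The log2 ratio of each member's mean CPM plus 1 to its 0-9 h mean CPM plus 1 in 10 spans of label time, kept embryos, 236 members per box. Boxes show the median and the quartiles, whiskers reach the 5th and 95th percentiles, and points are members beyond them; purple boxes are embryos 79-126, orange boxes embryos 26-78, and grey boxes hold more than 1 run. The solid line marks the 0-9 h level and the dotted line 1/3 of it. The median lies at the solid line at 28-34 h and drops most between 40-46 h and 47-49 h, where the run changes.

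The fall across this change was tested between 50-59 h (embryos 26-78, n = 10) and 40-46 h (embryos 79-126, n = 7). The filter on low counts was applied over all 15 groups of the fit, and all 236 members passed it. These groups include the early hours in which the rule required a high level. The pass is thus largely built in and does not show adequate counts in the 2 groups compared. With only these 2 groups in the fit, 54 members passed. In the fit of all groups, edgeR's quasi-likelihood test with Benjamini-Hochberg adjustment over 12285 transcripts called 138 members lower and 2 higher. Of all tested transcripts 16.9% were called lower and 10.4% higher in this comparison. Because the rule favours members with few counts in embryos 26-78, members and all transcripts are set side by side here as a description. Counting only calls with a count in at least 50% of the embryos of the higher group left 124 members lower and 2 higher, against 15.1% and 8.17% of all transcripts. The 2 members called higher are 2 of 236, a smaller share than the 10.4% of all transcripts, a difference in the direction that the rule favours. Over the 224 members with more than 3 counts in either group, the median ratio of pooled CPM was 0.179, with a floor of 3 counts for a group below it, against 0.653 over 11322 transcripts. Leaving out the embryos of 40 and 42 h, which held the highest levels, gave 86 members lower and 1449 of 12295 transcripts. With spike-in library sizes, which moved the median log2 change of all transcripts from -0.52 to -5.59, 232 members and 9707 of 12285 transcripts were lower, and with only the 2 groups in the fit 11 of 54 members tested and 454 of 6558 transcripts.

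Both members called higher, HD_v1_tr_02059 and HD_v1_tr_08729, were early transcripts that were low at 40-46 h and high at 48-59 h. HD_v1_tr_02059, one of the IDs named by the rule for named members, was at 0.919 to 256 CPM at 0-9 h (median 88.2 in 8 embryos 1-25 and 104 in 9 embryos 79-126). In the 7 embryos of 40-46 h it was at 1.66 to 4.21 CPM, except for 214 CPM at 42 h. It then stood at 605, 1046 and 1207 CPM at 47, 48 and 49 h, and at 435 to 2550 CPM in the 10 embryos of 50-59 h, with no overlap between 40-46 h and 47-59 h. The pooled level at 50-59 h was 153 times that at 40-46 h, or 447 times without the embryo of 42 h, which held 24 of the 36 counts (edgeR log2 change 5.79, SE 1.12, adjusted p = 3.23e-05). With library sizes taken from spike-in counts the log2 change was 0.45 and was not called. Later it was at 2481, 1036, 553 and 61.4 CPM at 62, 63, 64 and 69 h, and from 71 h on the highest value in a kept embryo was 13.0 CPM.

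HD_v1_tr_08729, named after its values were seen, was high in 3 spans of label time, one of them at 28-34 h. It was at 123 to 667 CPM in embryos 1-25 and at 367 to 1102 CPM in embryos 79-126 at 0-9 h, and at 16.1 to 112 CPM at 21-27 h. It was at 126 to 994 CPM in the embryos of 28-34 h and at 0 to 14.2 CPM at 35-39 h. At 40-46 h no embryo had more than 3.37 CPM. Within embryos 26-78 it rose from 27.9 CPM at 47 h to 251 at 48 h and 886 at 49 h, reached 1978 and 2089 CPM at 54 and 55 h, and was at 266 CPM at 62 h. At 63, 64 and 69 h it had no count. The pooled level at 50-59 h was 1066 times that at 40-46 h, which rests on 5 counts there, 4 of them in the embryo of 43 h. Without that embryo it was 3853 times, with a 95% counting interval of 691 to 152177 from the 1 count left. The change was called in the fit of all groups (edgeR log2 change 10.03, SE 1.48, adjusted p = 1.64e-07), and the 7 embryos of 40-46 h lay below the 10 of 50-59 h without overlap.

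**Figure D4:**
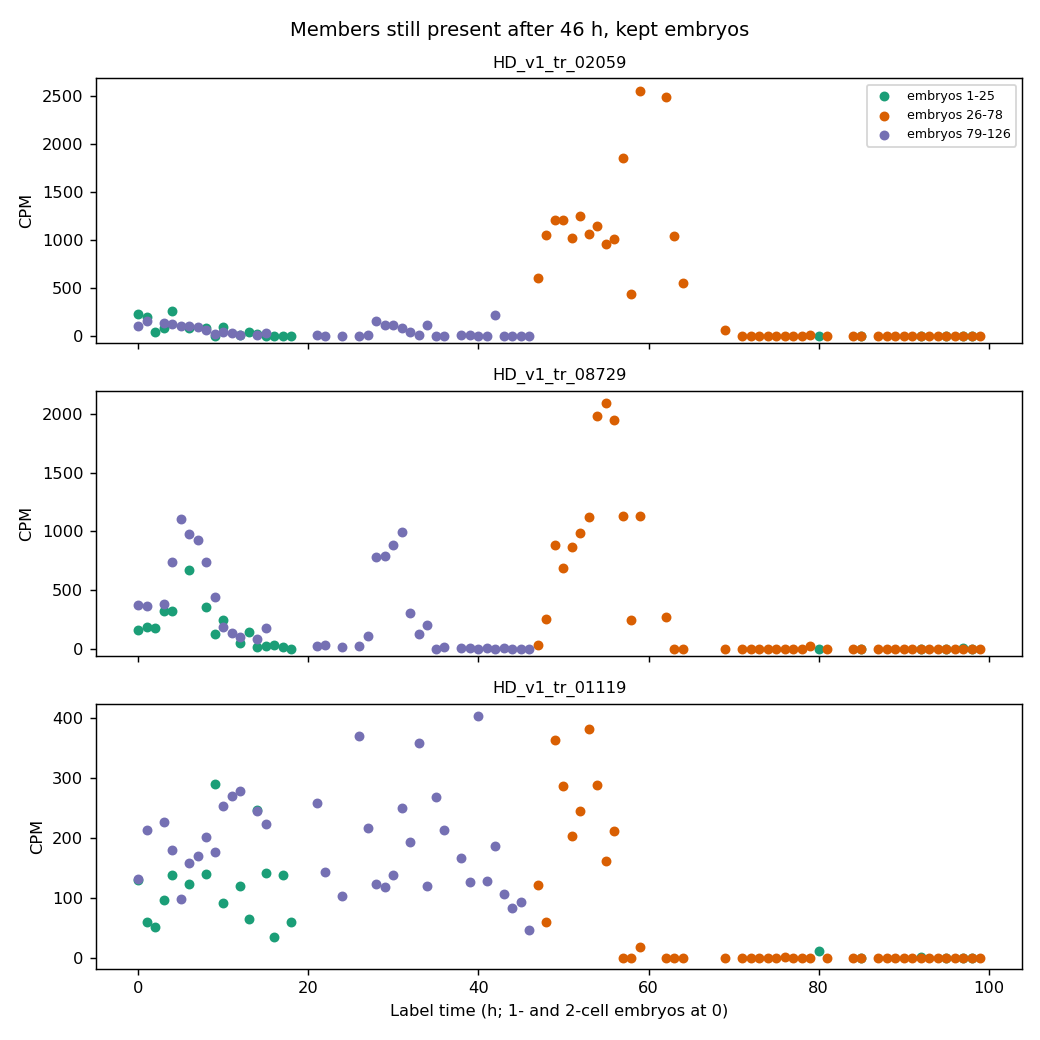
The level of HD_v1_tr_02059, HD_v1_tr_08729 and HD_v1_tr_01119 in CPM in each kept embryo against label time in hours, with colours for the 3 runs of embryo numbers. HD_v1_tr_02059 and HD_v1_tr_08729 are low at 40-46 h and high at 48 to 59 h, and HD_v1_tr_01119 has no such gap before its drop at 57 h.

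Within embryos 26-78 the remaining members were followed with no change of run. The low level that the rule required in its last window favours a fall here too. The shares of members and of all transcripts are therefore given as a description. At 80-89 h (n = 6) against 50-59 h (n = 10), edgeR called 82 of 236 members lower and 18 higher, where 12.0% of all tested transcripts were called lower and 19.8% higher. Most of these calls rest on counts in a minority of embryos: 38 of the 82 had a count in 1 embryo of 50-59 h, 14 of the 18 had a count in 1 embryo of 80-89 h, and 73 members had no count in either group. With a count required in at least 50% of the embryos of the higher group, 6 of 236 members were lower and 2 higher, against 6.45% and 15.1% of all transcripts. Limma on log2 CPM called 12 of 236 members lower, and 1095 of all 12285 transcripts. By both of these settings the share called lower was smaller in members than in all transcripts, the reverse of the main fit. At 70-79 h (n = 9) against the same 10 embryos, 64 members were lower and 20 higher, where 8.30% and 15.1% of all transcripts were. With counts in at least 50% of the embryos 8 of 236 were lower and 1 higher, smaller shares than the 3.74% and 5.19% of all transcripts. Both comparisons share the 50-59 h embryos. That all 236 members were tested here rests on the other groups of the fit too. With only the 2 groups compared in the fit, 11 members passed the filter at 80-89 h and 4 at 70-79 h. Per embryo, the summed level was 2459 to 4798 CPM at 50-59 h, 486 to 3779 CPM at 62-69 h (n = 4), 52.0 to 675 CPM at 70-79 h in 8 embryos with 2407 CPM in the other at 76 h, and 115 to 426 CPM at 80-89 h. The levels at 50-59 h and 80-89 h did not overlap. HD_v1_tr_02059 and HD_v1_tr_08729 alone had means of 1248 and 1218 CPM at 50-59 h, so 2 members carried more than 1/2 of the summed level there.

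HD_v1_tr_01119 and HD_v1_tr_02059 had the lowest adjusted p-values among the members called lower at 80-89 h. HD_v1_tr_01119 was counted in each of the 13 kept embryos from 10 to 18 h, at 34.0 to 278 CPM, and in the 7 embryos of 40-46 h at 45.9 to 404 CPM. In embryos 26-78 it was at 121, 59.8 and 364 CPM at 47, 48 and 49 h and at 161 to 381 CPM in the 7 embryos of 50-56 h. At 57, 58 and 59 h it had 0, 0 and 17.4 CPM, and the 4 kept embryos of 62-69 h had no count. The drop between 56 and 57 h thus lies within 1 run. The spans of 50-56 h and 57-59 h were cut at this drop after the values were seen, so their lack of overlap is a description. None of the 6 embryos of 80-89 h had a count, and the pooled level at 50-59 h was at least 560 times a floor of 3 counts over those 6 embryos (edgeR log2 change -10.53, SE 1.17, adjusted p = 3.28e-11). HD_v1_tr_02059 had no count in them either, at least 3314-fold lower than at 50-59 h (log2 change -13.32, SE 1.75, adjusted p = 3.01e-09). HD_v1_tr_08729 had no count in them, at least 3204-fold lower (log2 change -13.27, SE 1.86, adjusted p = 2.43e-08).

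The rule for named members also took the 2 with the highest fitted change in this comparison. HD_v1_tr_05751 had 12.4 and 73.7 CPM in the embryos of 81 and 84 h and no count in the 4 others of 80-89 h or in the 10 of 50-59 h (edgeR log2 change 7.11, adjusted p = 2.79e-06). HD_v1_tr_06995 had 28.9 CPM at 81 h and no count in the 5 others or at 50-59 h (log2 change 5.89, adjusted p = 2.98e-04). Neither was called by limma, and without the embryo of 81 h HD_v1_tr_06995 has no count left in either group. These are counts in 1 or 2 embryos of 6.

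A last window under 1 CPM did not mean a smooth decline before it. The first window with a mean under 1 CPM was 40-49 h for 17 members, 50-59 h for 82, 60-69 h for 83, 70-79 h for 16, 80-89 h for 13 and 90-99 h for 25. Of the 236, 125 stayed under 1 CPM in each window after their first, and the others had a mean of 1 CPM or more again. Among the 5 windows from 40 to 89 h, 189 members were highest in the first, at 40-49 h, and 22, 6, 6 and 13 in the 4 that follow. In 8 members a mean from 50 to 89 h reached 50 CPM, and in 6 it exceeded the 0-9 h mean. These counts mix runs, and 4 embryos were kept at 60-69 h.

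The runs of embryo numbers overlap in age at both ends of the course. The rule used the 0-9 h values, and a member could reach 50 CPM through 1 run alone, so the runs are set side by side there without a test. The ratio of the 0-9 h mean in embryos 1-25 (n = 8) to that in embryos 79-126 (n = 9) had a median of 0.885 over the 236 members, with quartiles of 0.640 and 1.20. In 196 members the means lay within 2-fold of each other, in 18 that of embryos 1-25 was more than 2 times as high, and in 22 it was under 1/2 of the other. The ratio ran from 0.243 to 86.1, and 5 members, named after their values were seen, had ratios of 8.01 or more, where the next had 4.13.

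In 3 of the 5 almost no counts were found in embryos 79-126, so they became members through embryos 1-25. HD_v1_tr_07766 was at 34.2 to 244 CPM in the 8 embryos 1-25 and at 0 to 7.15 CPM in the 9 embryos 79-126, a ratio of means of 86.1, or 215 without the embryo of 8 h. HD_v1_tr_06523 was at 40.9 to 215 CPM in embryos 1-25 and at 0 to 5.67 CPM in embryos 79-126, a ratio of 63.1. HD_v1_tr_02799 was at 67.6 to 192 CPM and at 0 to 5.22 CPM, a ratio of 62.8. The other 2 were counted in most embryos 79-126 at lower levels. HD_v1_tr_10046 was at 143 to 402 CPM in embryos 1-25 and at 0 to 116 CPM in embryos 79-126, a ratio of 12.4, or 26.5 without the embryo of 5 h that held the 116 CPM. HD_v1_tr_01293 was at 143 to 479 CPM and at 2.84 to 104 CPM, a ratio of 8.01. The levels in CPM are relative to all transcripts of a library. The ratio of transcript to spike-in counts at 0-9 h was 6.63 to 12.4 in embryos 1-25 and 89.5 to 235 in embryos 79-126. A higher CPM in embryos 1-25 thus need not mean a higher level relative to the spike-ins, and this was not tested.

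**Figure D5:**
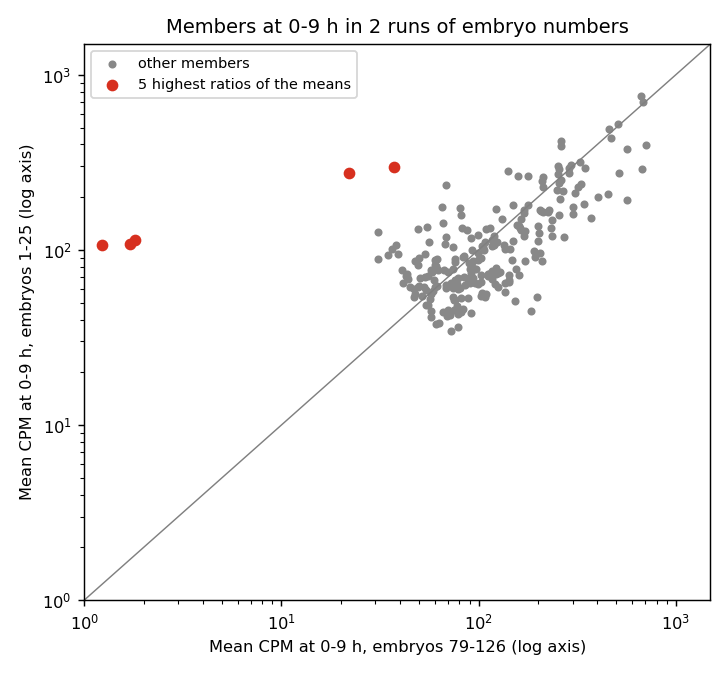
The mean CPM of each member at 0-9 h in embryos 79-126 (horizontal, n = 9) and in embryos 1-25 (vertical, n = 8), on log axes with the line of equal means. The 5 members with the highest ratios of the means, 8.01 to 86.1, are red and lie above the line, 3 of them under 2 CPM in embryos 79-126.

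At the end of the course the runs differed in how many members still had counts. At 90-99 h the embryos 1-25 of 92, 95, 97 and 98 h held a summed level of 280, 107, 34.9 and 263 CPM, with 79, 25, 7 and 60 members counted. In the 10 embryos 26-78 of this window it was 0 to 81.8 CPM, with 0 to 11 members counted. Pooled over embryos, 130 members had a count in embryos 1-25, 26 had one in embryos 26-78, and 93 had none in either. Depth differed too. Total counts were 2026191, 915069, 200536 and 1511717 in the embryos 1-25 of 92, 95, 97 and 98 h, the same rank order as their members counted. They were 131746 to 1124678 in the embryos 26-78, and the part of depth was not tested. At 80-89 h the 2 kept embryos 1-25 were at 1928 and 1068 CPM, above the 115 to 426 CPM of the 6 embryos 26-78. The first of these, at 80 h, held 51.3% of its 90771 counts on 1 transcript and 0.268 transcript counts per spike-in read, whose part in its level was not tested. The rule used the 90-99 h values, and taking them from embryos 26-78 alone would give 366 members, 229 of them among the 236.

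The 25 embryos under the depth limit were not used by the rule. In the 2 at the 2-cell stage and 2 h, the members summed to 31886 and 34050.1 CPM. In the 5 from 13 to 19 h they summed to 12967 to 24226 CPM, in the 3 from 20 to 25 h to 15557 to 17081 CPM, and at 37 h to 4478 CPM. Those of 13 to 25 h lay within the 11891 to 31101 CPM of the kept embryos from 10 to 27 h, and that of 37 h lay below the lowest kept embryo of 35-39 h. In the 7 from 60 to 70 h they summed to 0 to 88.2 CPM, and in the 4 embryos 26-78 from 80 to 86 h to 0 to 462 CPM. The 3 embryos 1-25 from 82 to 86 h were higher, at 2364 to 4604 CPM, in libraries with 55.0% to 59.9% of counts on 1 transcript and 0.170 to 0.198 transcript counts per spike-in read, whose part in the result was not tested. In 10 of the 11 embryos 26-78 under the limit, which held few or no member counts, these values were 38.3% to 72.5% and 0.146 to 0.323. The 25 libraries hold 2347 to 59340.0 counts, so a value near 0 for single members was not resolved in them.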

How the data were processed

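Single-embryo CEL-Seq libraries of 126 embryos were used. The deposited values are raw counts per transcript model, not normalized, and the submitters' processing notes name CASAVA 1.8, Bowtie2 2.1.0 and HTSeq 0.5.4p3. Build and annotation are not given in the sources at hand. The 92 spike-ins and 5 summary rows, of which reads outside any model took a median of 6.64% per embryo, stayed out of library sizes. Reads are not independent molecules, so floors of 3 counts cover counting error only.

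The 101 embryos at or above 10% of the median depth (634044 counts) were kept, and CPM was computed from their counts. One edgeR 4.0.16 fit (R 4.3.3, TMM, default filter on low counts, quasi-likelihood test) covered 15 groups of window and run of embryo numbers. P-values were adjusted by Benjamini-Hochberg over 12285 transcripts and compared with 0.05. Limma 3.58.1, DESeq2 1.42.0, other depth limits, scalings, filters, thresholds and left-out embryos were alternatives. Those on the embryos of 28 to 34, 40 and 42 h, on embryo 37, on 47-49 h, on 90-99 h from embryos 26-78, on counts in 50% of embryos and limma were chosen after seeing the data. The planned edgeR comparisons of the runs at 0-9 h and 10-19 h, and their alternatives, are not reported, because the rule used these windows. The code was tested on simulated data. The rest used pandas 2.3.3 and numpy 2.4.6 in Python 3.11.15, and figures matplotlib 3.10.9.

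The members and lists were chosen with earlier results of these data known. Named members were the 2 with the lowest adjusted p among those lower at 80-89 h against 50-59 h in embryos 26-78, and the 2 with the highest fitted change there with at least 5 counts, and 6 others are said to be named after their values were seen. Gene lists of RNA decay, germ line, cell cycle and replication could not be applied to IDs without names.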

Additional observations from a re-analysis of the deposited data

Results flagged for a closer look

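Each of 13 sets of 4 to 10 embryos of 1 window and run was checked for 2 measures. These were the summed member level and the number of members with a count, and 7 values lay far from the others of their set. For values from 1 normal distribution, chance gives such a value in about 1 in 20 checks. The embryos of a set differ in label hour and depth, so the 7 cannot be read as an excess over that rate. Embryo 55 (76 h) held 2406.6 CPM of member transcripts and counts in 64 members, against 52.0 to 675 CPM and 3 to 31 members in the 8 others of 70-79 h in embryos 26-78. The other transcripts of this library stood apart too, with a Spearman rho with the 0-9 h profile of embryos 1-25 of 0.591, against 0.0962 to 0.299 in the 8 others. Without it, 78 members in place of 64, and 1251 of 12288 transcripts in place of 1020.0 of 12285, were lower at 70-79 h than at 50-59 h. Embryo 70 (91 h) held 81.8 CPM, against 0 to 41.3 CPM in the 9 other embryos 26-78 of 90-99 h. Embryo 37 (58 h) had counts in 8 members, against 29 to 53 in the 9 others of 50-59 h, in a library of 154116 counts against 610275 to 1756168. In embryos 79-126, embryo 81 (1 h) had counts in 220 members, where the rest of 0-9 h had 233 to 236. For embryo 95 (15 h) the number was 208 and for the rest of 10-19 h 231 to 234. For embryo 101 (21 h) it was 208 and for the rest of 20-29 h 225 to 236. The total counts of these 3 were 65417, 129668 and 337240.0, the lowest of their sets.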

How the results depend on the processing

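Of 58 alternatives for the counts of members, 46 lay within 1.5 times the main count. Fitting only the 2 groups compared gave 4 of 11 members tested lower at 80-89 h against 50-59 h, 2 of 4 at 70-79 h and 11 of 54 at 50-59 h against 40-46 h, where 461 of 6749, 169 of 4788 and 454 of 6558 transcripts were. Limma gave 12 and 11 lower at 80-89 h and 70-79 h, where 1095 and 1005 of 12285 transcripts were. Counts in at least 50% of embryos left 6 and 8 lower at 80-89 h and 70-79 h, where 792 and 460.0 transcripts were. Spike-in library sizes gave 232 lower at 50-59 h against 40-46 h, where 9707 of 12285 transcripts were. Without the embryos of 40 and 42 h, 86 were lower at 50-59 h, and 1449 of 12295 transcripts. The rule gave 1024 members with medians in place of means, 366 with 90-99 h from embryos 26-78 alone, and 133 with 1/2 of the 0-9 h mean and without the embryos of 28 to 34 h. Leaving out 1 embryo of 80-89 h at a time gave 79 to 94 members lower, where 1347 to 1650.0 transcripts were. Of 106 alternatives for single members 102 kept direction and call, 4 lost the call and none reversed. This tally leaves out the requirement of counts in at least 50% of embryos, and fits with no value or no count left. HD_v1_tr_05751 and HD_v1_tr_06995, with counts in 2 and 1 of the 6 embryos of 80-89 h, do not meet that requirement. The cause of these shifts was not tested. No paired analysis was possible because the embryos compared differ in age and replicate numbers pair none of them. Members with few counts in a library are limited by depth.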
